A study of Homo sapiens with 9 samples.

Results

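MALAT1, NEAT1 and KCNQ1OT1 are long noncoding RNAs that stay in the nucleus, and they are 3 of the 58735 genes in the deposited table. They were picked by name because all 3 were lower after 1 µM of YK-4-279, a small molecule that inhibits transcription factors of the ETS family. Their values at 1 µM are therefore the values that chose them, and these are described here with no test. RNA-seq was performed on KHM-5M cells, an established thyroid cancer cell line, kept for 24 h with DMSO (the vehicle), with 0.3 µM or with 1 µM of YK-4-279. There were 3 samples in each of the 3 groups, and all 9 came from the same cell line. The study's methods speak of biological replicates (2 per condition, against 3 samples in the labels) and neither source says which samples came from separate cultures, so p-values measure the spread between these samples, which may be technical.

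MALAT1 accumulates in nuclear speckles, the compartments where splicing factors gather, and it is among the most abundant noncoding RNAs of many tumors. NEAT1 is the scaffold of paraspeckles, nuclear bodies built on this RNA and bound by proteins such as NONO and SFPQ. KCNQ1OT1 is an unspliced transcript that starts inside an intron of KCNQ1, runs antisense to it, and is known for silencing neighboring genes of an imprinted domain in cis. MALAT1 and the long isoform of NEAT1 do not end in a poly(A) tail. The enzyme RNase P cuts off a tRNA-like small RNA, and the new end is held in a helix formed by U-rich motifs and a genome-encoded A-rich tract. KCNQ1OT1 is not known for such an end.

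In the deposited annotation (GRCh38) all 3 lie on chromosome 11. MALAT1 (ENSG00000251562, lincRNA, plus strand) spans chr11:65497688-65506516, and NEAT1 (ENSG00000245532, lincRNA, plus strand) spans chr11:65422774-65445540. A gap of 52.1 kb separates the end of NEAT1 from the start of MALAT1. KCNQ1OT1 (ENSG00000269821, antisense, minus strand) spans chr11:2608328-2699994 within KCNQ1, 62.7 Mb from NEAT1. The deposited gene length equals the whole span in each case, 8829 bases for MALAT1, 22767 for NEAT1 and 91667 for KCNQ1OT1, so that the annotation treats each as exonic over its entire length. Of the 15617 genes tested at 1 µM, 85.0% were shorter than MALAT1, 99.5% were shorter than NEAT1 and nearly all (99.98%) were shorter than KCNQ1OT1.

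The 3′ ends of MALAT1 and NEAT1 are shown because the protected end is the sequence feature these RNAs have in common, and because the libraries were selected with poly(T) beads per the labels. Capitals mark, from 5′ to 3′, U-rich motif 1 (TTTCTTTT), U-rich motif 2 (GTTTTGCTTTT) and the A-rich tract (AAAAAGCAAAA), searched on the transcribed strand and written as DNA from the GRCh38 genome. The MALAT1 stretch is chr11:65506021-65506136 (plus strand) and the NEAT1 stretch is chr11:65445443-65445560 (plus strand).
MALAT1: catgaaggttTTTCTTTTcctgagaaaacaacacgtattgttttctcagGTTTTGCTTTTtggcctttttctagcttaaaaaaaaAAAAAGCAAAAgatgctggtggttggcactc
NEAT1: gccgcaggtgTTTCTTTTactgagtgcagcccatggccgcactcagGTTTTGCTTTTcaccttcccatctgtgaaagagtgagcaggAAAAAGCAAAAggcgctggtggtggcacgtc

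Both stretches hold the motifs in the same order, and their longest shared run is 16 bases. MALAT1 goes on for 400 bases beyond the A-rich tract in the deposited annotation, and the next base opens the small RNA RF01684, the tRNA-like product. NEAT1 as deposited ends exactly with its A-rich tract, 0 bases after it, so the final lower-case bases lie outside the counted gene. Among the 61228 genes of the GENCODE v44 transcripts, MALAT1 and NEAT1 were the 2 (0.00327%) with these 3 motifs in this order and at most 60 bases between neighbors. The motifs searched are exact letters that both ends hold, so their own match is no result. Similar ends with other letters would be missed. KCNQ1OT1 holds the A-rich letters once and U-rich motif 2 in 0 places. Its 91667 bases hold 17 A-runs of at least 10 bases and 4 of at least 15, the longest being 29 bases. NEAT1 has 5 runs of at least 10 in its 22767 bases, with a longest run of 22. MALAT1 has 1 run, of 13 bases, which leads into its A-rich tract. These counts are not scaled to length, so they do not set KCNQ1OT1 apart. A and T together make up 59.4% of MALAT1, 55.9% of NEAT1 and 56.3% of KCNQ1OT1.

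Since YK-4-279 is directed at ETS factors, the promoters were searched for CGGAAG, a core of their binding site, on both strands. The RefSeq promoter table (GRCh38.p14) holds windows of 250 bases before to 50 bases after a start for MALAT1 but not for NEAT1 or KCNQ1OT1. MALAT1 has 2 starts there. The upstream window, chr11:65497488-65497787, holds the letters 0 times. The window of the second start, which lies 1357 bases inside the deposited gene, holds them once, in capitals below (chr11:65498795-65499094, plus strand).
MALAT1 second start: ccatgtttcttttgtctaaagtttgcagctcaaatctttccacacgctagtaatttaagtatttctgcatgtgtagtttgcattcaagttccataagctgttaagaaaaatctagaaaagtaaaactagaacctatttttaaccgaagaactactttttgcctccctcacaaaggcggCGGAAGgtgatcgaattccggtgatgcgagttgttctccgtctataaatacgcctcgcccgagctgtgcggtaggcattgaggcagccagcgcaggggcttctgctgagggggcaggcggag
The same letters occur in 19.5% of the 35116 promoter windows of this table. The match is a description of these letters.

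The counts summed to 16903251 to 18238884 per sample, of which 97.56% to 97.99% fell on protein-coding genes and 2.36% to 2.92% on mitochondrially encoded mRNAs. No pair of samples within a group matched as a duplicate would (the chi-square statistic of the counts was 3.20 to 10.7 times its degrees of freedom). Among thyroid markers, PAX8 was well expressed (2742 to 3660 counts), FOXE1 reached 34 counts at most, and NKX2-1, TG, TSHR and SLC5A5 had 0 to 10 counts. Of 5 epithelial markers KRT8 and KRT18 were abundant, while CDH1 had at most 5 counts. The 4 leukocyte markers together had 8 to 37 counts, and of the 5 fibroblast markers COL1A1 and PDGFRB were expressed while COL1A2, COL3A1 and DCN had at most 10. TG, TSHR and SLC5A5, which mark differentiated thyroid cells, were thus at or near 0. COL1A1 and PDGFRB fell at 1 µM (log2 fold changes of -0.41 and -0.48), with summed fibroblast markers of 7843 to 10510 counts in DMSO and 6449 to 7426 at 1 µM, and CD14 rose from low counts. Their part in the results below was not tested.

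Per unit of deposited length, MALAT1 had the highest level of the 3 in DMSO, at 29.1 ± 4.38 FPKM (fragments per kilobase of gene, scaled to library size, as deposited; SD, n = 3). NEAT1 stood at 11.7 ± 2.06 FPKM and KCNQ1OT1 at 1.04 ± 0.119 FPKM. The ranges of the 3 genes did not overlap in any group. Without the division by length, MALAT1 and NEAT1 received similar numbers of reads, and they ranked 2 and 3 among the 13212 lincRNA and antisense genes by mean CPM (counts scaled to the library total), with KCNQ1OT1 at rank 6. By mean FPKM their ranks were 6, 29 and 724. The FPKM of NEAT1 rests on the length of the long isoform, since the table has 1 value per gene and cannot separate the short polyadenylated form from the long form. The order of MALAT1 and NEAT1 by FPKM depends on that length. Levels, ranks and fold changes are of RNA captured by poly(T) selection, while MALAT1 and long NEAT1 end without a poly(A) tail. How fully each RNA was captured was not tested.

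MALAT1 was counted 3876, 5433 and 4227 times in the DMSO samples, 3765, 4461 and 4280 times at 0.3 µM, and 2591, 1937 and 2491 times at 1 µM. As CPM scaled by TMM normalization factors, these were 225, 299 and 248 in DMSO, 212, 247 and 246 at 0.3 µM, and 142, 113 and 149 at 1 µM. All samples at 1 µM lay below all samples of the other groups, whereas the 0.3 µM and DMSO samples overlapped. The mean of 134.6 ± 19.3 CPM at 1 µM (SD, n = 3) was 52.2% of the DMSO mean of 258 ± 37.7 CPM. The fitted log2 fold change at 1 µM against DMSO was -0.96 (SE 0.11), or 1.95-fold lower.

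NEAT1 was counted 4159, 5823 and 4092 times in DMSO, 3773, 3525 and 4084 times at 0.3 µM, and 2672, 1471 and 2579 times at 1 µM. The scaled levels were 242, 320.5 and 241 CPM in DMSO, 213, 195 and 235 CPM at 0.3 µM, and 147, 85.5 and 154 CPM at 1 µM. The groups did not overlap: every 0.3 µM sample lay below every DMSO sample and above every 1 µM sample. The highest 0.3 µM sample, at 235 CPM, was close to the lowest DMSO sample, at 241 CPM. Over all genes tested, 0.3 µM lay wholly below DMSO for 4.23% and 1 µM wholly below 0.3 µM for 14.8%. The share with both was not computed, and the 1 µM samples chose NEAT1. The mean at 1 µM was 129 ± 37.6 CPM (SD, n = 3), 48.1% of the DMSO mean of 268 ± 45.8 CPM. NEAT1 had the lowest fitted value of the 3, with a log2 fold change of -1.08 (SE 0.16), 2.12-fold lower than DMSO. It also varied the most at 1 µM, where the highest sample was 1.80 times the lowest, against 1.33 times in DMSO.

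KCNQ1OT1 was counted 1517, 1951 and 1538 times in DMSO, 1612, 1680 and 1842 times at 0.3 µM, and 1198, 1082 and 1094 times at 1 µM. The scaled levels were 88.2, 107 and 90.4 CPM in DMSO, 90.9, 93.1 and 106 CPM at 0.3 µM, and 65.7, 62.9 and 65.4 CPM at 1 µM. The DMSO and 0.3 µM samples were intermixed, and the 1 µM samples stood apart below both. Its 1 µM samples were also the tightest, with a coefficient of variation of 2.39% against 14.4% for MALAT1 and 29.2% for NEAT1. The mean fell to 67.8% of DMSO, from 95.3 ± 10.5 to 64.7 ± 1.54 CPM (SD, n = 3), and the fitted log2 fold change was -0.59 (SE 0.08), or 66.6% of the DMSO level.

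**Figure D1:**
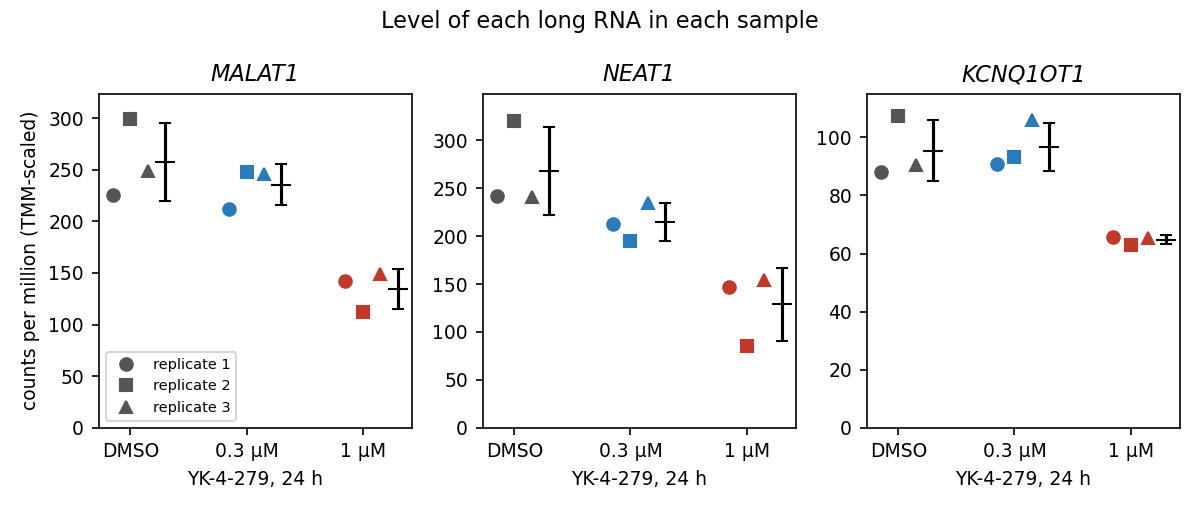
CPM (TMM-scaled, linear axis from 0) of MALAT1, NEAT1 and KCNQ1OT1 in each of the 9 samples, by YK-4-279 dose, with marker shape giving the replicate number and black bars the mean ± SD of 3 samples. The 1 µM samples lie below all others for each RNA, between 112.6 and 149 CPM for MALAT1, 85.5 and 154 CPM for NEAT1, and 62.9 and 65.7 CPM for KCNQ1OT1.

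Samples at the edges of their groups recurred. DMSO replicate 2 was the highest DMSO sample for all 3 RNAs, and 1 µM replicate 2 was the lowest 1 µM sample for all 3. DMSO replicate 2 had the lowest share of mitochondrial mRNA (2.36%) of the 9 samples and the lowest share of protein-coding counts (97.56%), and 1 µM replicate 2 had the highest share of protein-coding counts (97.99%). The part of these library differences was not tested. Without DMSO replicate 2 the log2 fold changes at 1 µM were -0.83 for MALAT1, -0.92 for NEAT1 and -0.48 for KCNQ1OT1. Without 1 µM replicate 2 they were -0.85, -0.86 and -0.57. Without that sample MALAT1 and NEAT1 had nearly the same fold change, and KCNQ1OT1 had the smallest of the 3 in both cases.

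For background, 2752 of the 15617 genes tested at 1 µM against DMSO (17.6%) had an adjusted p under 0.05 by edgeR's quasi-likelihood test, 1554 of them lower (9.95%) and 1198 higher (7.67%). The number was 1683 without DMSO replicate 3, 1755 without 1 µM replicate 2 and 1805 without 1 µM replicate 3. The 3 samples at 1 µM all lay below the 3 DMSO samples for 16.3% of genes. Counted from the lowest, the fitted fold change of NEAT1 ranked 348, that of MALAT1 485 and that of KCNQ1OT1 1298 of 15617. The median over all genes was -0.01. Since these RNAs were picked for being lower at 1 µM, nothing is read from their standing. In RNA from whole cultures, fewer cells that express a gene and less RNA per cell cannot be told apart.

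The comparison of 0.3 µM with DMSO used treated samples that played no part in the choice, although it shares its DMSO samples with the comparison that did. In this comparison 0 of 15762 genes (0%) had an adjusted p under 0.05 by edgeR. An unadjusted p under 0.05 was found for 594 genes (3.77%), DESeq2 called 1 gene, and edgeR with the replicate number as a block called 1. NEAT1 showed a log2 fold change of -0.33 (SE 0.10, 95% interval -0.54 to -0.12), or 79.6% of the DMSO level, with an unadjusted p of 0.00445 and an adjusted p of 0.995 (edgeR). Without DMSO replicate 2 the value was -0.17. With no filter on low counts, where 30 genes were called and 1 spread was in effect shared by every gene, it was -0.32 with an adjusted p of 0.0157 (edgeR). All 3 samples were below all 3 DMSO samples, which held for 4.23% of genes in this comparison. MALAT1 had a log2 fold change of -0.14 (SE 0.09, interval -0.33 to 0.06, adjusted p = 0.995 by edgeR), and 1 of its 3 samples was below the lowest DMSO sample. Its value was -0.012 without DMSO replicate 2, -0.068 without 0.3 µM replicate 1 and -0.23 without DMSO replicate 1. With the replicate number as a block it was -0.13 (SE 0.06, adjusted p = 0.781 by edgeR). The 0.3 µM sample of MALAT1 was below the DMSO sample of the same number in 3 of 3 pairs, as for NEAT1. For MALAT1 replicate 3 this was 246 against 248 CPM. The share of all genes with 3 of 3 pairs lower was not computed, and whether the numbers mark pairs is not settled. Nothing is read from these pairs. KCNQ1OT1 had 0.01 (SE 0.09, interval -0.18 to 0.20, adjusted p = 0.996 by edgeR) and 0 samples below the lowest DMSO sample. With the filter on low counts, none of the 3 RNAs passed the test at 0.3 µM.

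**Figure D2:**
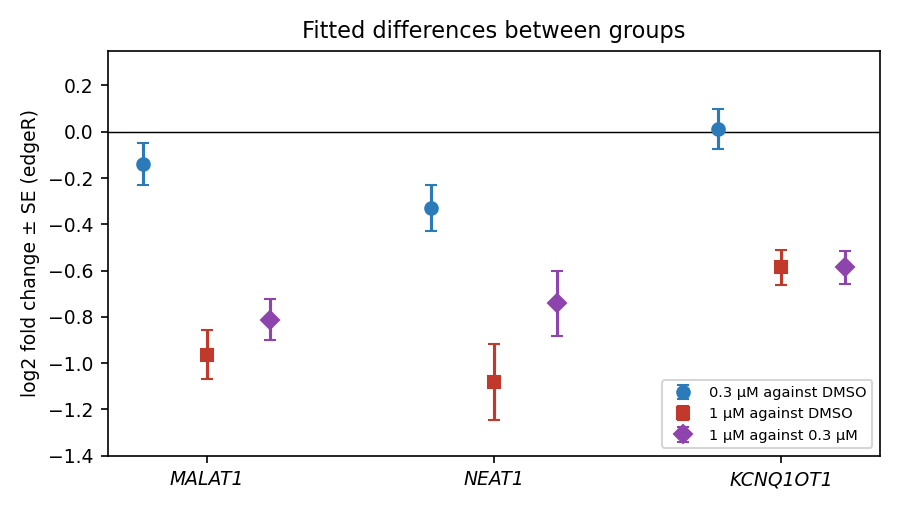
edgeR log2 fold change ± SE (linear axis of log2 values) of each long RNA for 0.3 µM against DMSO, 1 µM against DMSO and 1 µM against 0.3 µM. KCNQ1OT1 sits at 0.01 for 0.3 µM and at -0.59 for 1 µM, while NEAT1 sits at -0.33 and -1.08.

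From 0.3 to 1 µM the log2 fold changes were -0.81 (SE 0.09) for MALAT1, -0.74 (SE 0.14) for NEAT1 and -0.59 (SE 0.07) for KCNQ1OT1, and the groups did not overlap for any of them. The 1 µM samples chose these genes, so the values carry no test. For background, 1963 of 15583 genes (12.6%) passed the test in this comparison. All 3 samples at 1 µM lay below all 3 at 0.3 µM for 14.8% of genes. Without 1 µM replicate 2, the value of NEAT1 was -0.52. The ratio of KCNQ1OT1 to MALAT1 CPM was 0.371 ± 0.0174 in DMSO, 0.412 ± 0.0304 at 0.3 µM and 0.487 ± 0.0633 at 1 µM (SD, n = 3), and the ratio of NEAT1 to MALAT1 was 1.04 ± 0.0602, 0.916 ± 0.111 and 0.942 ± 0.158. The NEAT1 to MALAT1 ranges overlapped between DMSO and 0.3 µM and between DMSO and 1 µM.

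The deposited annotation holds other genes within the spans of the 3 RNAs, and these bear on how reads were counted. MALAT1 overlaps 3 and NEAT1 overlaps 4 other genes, among them the small RNAs RF01684 and MIR612, and none had a count in any sample. KCNQ1OT1 overlaps 5, of which the host gene KCNQ1, a potassium channel subunit, had at most 4 counts. Whether strand was used in counting is not stated in the sources used here. Reads of unspliced KCNQ1 and of KCNQ1OT1 therefore cannot be told apart if it was not, although KCNQ1 exons were at or near 0 in every sample.

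Genes of at least 1 CPM within 250 kb were examined next. Around NEAT1 and MALAT1, 19 other genes were tested at 1 µM, with a median log2 fold change of 0.05. The test was passed by 3 of them, beside 17.6% of all genes. MAP3K11, a kinase of the JNK pathway, rose by a log2 of 0.36 (SE 0.10, adjusted p = 0.0218 by edgeR), and RELA, the p65 subunit of NF-kB, rose by 0.32 (SE 0.07, adjusted p = 0.00641 by edgeR). POLA2, a subunit of DNA polymerase alpha, fell by 0.74 on the log2 scale (SE 0.12, adjusted p = 0.00115 by edgeR). The closest gene upstream of NEAT1, FRMD8 at 9.25 kb, had 0.31 (SE 0.10, adjusted p = 0.0556 by edgeR). In all, 1 of the 19 neighbors fell and 2 rose, beside 9.95% and 7.67% of all genes, so nothing is read from these counts. Around KCNQ1OT1, 6 genes were tested and 1 passed, beside the same 17.6% of all genes. PHLDA2, an imprinted gene that restrains placental growth, rose by 0.74 (SE 0.15, adjusted p = 0.00338 by edgeR).

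**Figure D3:**
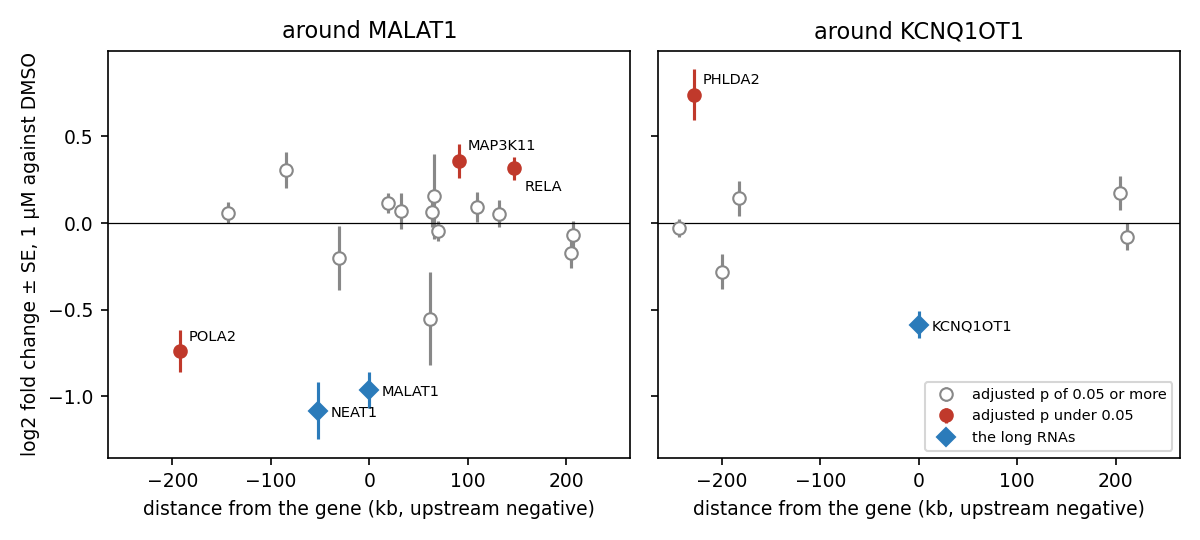
log2 fold change ± SE at 1 µM against DMSO of genes of at least 1 CPM, plotted against the distance in kb from MALAT1 (left) and KCNQ1OT1 (right), upstream negative; blue diamonds are the long RNAs. MALAT1 and NEAT1 lie at -0.96 and -1.08, with POLA2 as the single called neighbor that fell, and PHLDA2 lies at 0.74 near KCNQ1OT1.

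KCNQ1OT1 is known for acting on an imprinted domain, and 14 genes of this domain were listed. Of these, 10 were expressed well enough to test at 1 µM, 1 rose, 2 fell and 7 did not pass, with a median of -0.05. Among all genes tested, 7.67% rose and 9.95% fell. PHLDA2 had 27.0 to 47.3 FPKM in DMSO and 60.3 to 71.8 FPKM at 1 µM, with no overlap. CDKN1C, the cell cycle inhibitor of the domain, had a log2 fold change of 0.14 (SE 0.10, adjusted p = 0.349 by edgeR). OSBPL5, a lipid transfer protein, fell by 0.30 on the log2 scale (SE 0.09, adjusted p = 0.0375 by edgeR). SLC22A18AS fell by 1.36 (SE 0.40, adjusted p = 0.0293 by edgeR), from 14, 21 and 19 counts in DMSO to 6, 9 and 6 counts at 1 µM, and it is antisense to SLC22A18, so its reads share the limit on strand. Its 1 µM counts were all under the filter's minimum of 10, so it was tested only through its DMSO samples. Its call, 1 of the 2 falls of this list, is therefore not read as a result. With DESeq2, and without DMSO replicate 3, 1 µM replicate 1 or 1 µM replicate 3, 1 gene was called in place of 3, and it rose. At 0.3 µM, 0 of 10 passed.

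The proteins of the bodies that these RNAs belong to were listed as well. Of 22 paraspeckle proteins, 3 rose, 4 fell and 15 did not pass at 1 µM, while 7.67% of all genes rose and 9.95% fell. The median log2 fold change was -0.05 beside -0.01 over all genes. PSPC1 and SFPQ, core proteins that bind NEAT1, rose by 0.41 (SE 0.07, adjusted p = 0.00133 by edgeR) and 0.27 (SE 0.06, adjusted p = 0.00821 by edgeR). PSPC1 went from a mean of 9.47 FPKM in DMSO to 12.4 to 13.2 FPKM at 1 µM. HNRNPM, a splicing regulator, rose by 0.23 (SE 0.06, adjusted p = 0.0164 by edgeR). NONO, the partner of SFPQ, had -0.11 (SE 0.05, adjusted p = 0.136 by edgeR). SS18L1, a chromatin remodeling subunit, fell by 0.52 on the log2 scale (SE 0.08), CIRBP, a cold-inducible RNA-binding protein, by 0.37 (SE 0.07) and ZC3H6 by 0.32 (SE 0.10), with adjusted p of 0.000761, 0.002 and 0.0407 by edgeR. Direction was therefore mixed within the list.

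Of 14 nuclear speckle proteins, 4 rose, 5 fell and 5 did not pass at 1 µM, with a median of -0.08. For comparison, 7.67% of all genes rose and 9.95% fell. SRSF1, an SR splicing factor, rose by 0.50 (SE 0.08, adjusted p = 0.00105 by edgeR), from 10.2 to 12.0 FPKM in DMSO to 14.5 to 16.7 FPKM at 1 µM. SRSF3, of the same family, and BCLAF1 both rose by 0.21 (adjusted p of 0.0447 and 0.0436 by edgeR). RBM25, a splicing regulator, fell by 0.58 on the log2 scale (SE 0.07, adjusted p = 0.000145 by edgeR), from 22.8 to 26.7 FPKM to 15.1 to 17.8 FPKM. The speckle scaffold SRRM2 fell by 0.38 and SRRM1 by 0.31 (adjusted p of 0.000468 and 0.00197 by edgeR), whereas SON, the other scaffold protein, rose by 0.17 (adjusted p = 0.0418 by edgeR). Leaving out 1 µM replicate 1, 2 or 3 in turn reduced the 9 called speckle genes to 4, 5 and 4. The number that rose depended on the settings: it was 1 of 6 called genes with library sizes from protein-coding genes, 1 of 6 without DMSO replicate 1 or 3, 1 of 4 without 1 µM replicate 1 or 3 and 1 of 5 with the replicate block.

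Of 20 genes for 3′ end processing and nuclear RNA decay, 19 were tested, 0 rose, 2 fell and 17 did not pass, with a median of -0.01. The shares over all genes were 7.67% that rose and 9.95% that fell. The list held subunits of RNase P, the enzyme that cuts the ends of MALAT1 and NEAT1, and none of those tested passed, with log2 fold changes between -0.32 for RPP25 and 0.24 for RPP40. RPP21 was too low to test. ELAC2, which trims tRNA 3′ ends, had 0.09 (SE 0.07, adjusted p = 0.366 by edgeR), and METTL16, which binds the MALAT1 end, had 0.16 (SE 0.07, adjusted p = 0.125 by edgeR). PABPN1, the nuclear poly(A)-binding protein, fell by 0.42 on the log2 scale (SE 0.09, adjusted p = 0.00438 by edgeR), and it shares exons with a readthrough gene, so its counts are uncertain. ZFC3H1, a subunit of the complex that passes polyadenylated nuclear RNA to the exosome, fell by 0.27 (SE 0.08, adjusted p = 0.0256 by edgeR). Without DMSO replicate 3, 1 µM replicate 1 or 1 µM replicate 3, 1 gene was called in place of 2.

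Other long RNAs with nuclear roles were listed for comparison. Of these 12 genes, 8 were tested at 1 µM and 1 passed, beside 17.6% of all genes. Their median was -0.23 beside -0.01 over all genes. TUG1 fell by 0.22 on the log2 scale (SE 0.06, adjusted p = 0.0304 by edgeR), a call lost without DMSO replicate 2, without DMSO replicate 3 or without 1 µM replicate 2. MIAT, another RNA of nuclear bodies, had -0.81 (SE 0.30, adjusted p = 0.0816 by edgeR) at a mean of 31.7 counts over the 9 samples, and HOTAIR had -0.75 (SE 0.37, adjusted p = 0.19 by edgeR) at 22.7 counts. Against DMSO, differences of this size did not reach the threshold at such counts. From 0.3 to 1 µM, 1 of the 8 passed, beside 12.6% of all genes. It was MIAT, at -0.99 (SE 0.29, adjusted p = 0.0336 by edgeR).

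Of 13 snoRNA host and cytoplasmic long RNAs, 12 were tested, 0 rose, 3 fell and 9 did not pass, with a median of -0.22. SNHG1 and GAS5, both snoRNA hosts, fell by 0.45 (SE 0.06) and 0.34 (SE 0.06) on the log2 scale, with adjusted p of 0.000195 and 0.00223 by edgeR. CYTOR, a cytoplasmic long RNA, fell by 0.33 (SE 0.07, adjusted p = 0.00621 by edgeR). NORAD, an abundant cytoplasmic RNA that binds Pumilio proteins, had -0.02 (SE 0.07, adjusted p = 0.89 by edgeR). Without DMSO replicate 1, 5 genes of this list were called. Falls were thus called for 1 of 8 nuclear long RNAs and 3 of 12 of this list, beside 9.95% of all genes. These are small counts, and no result about either list is read from them. At 0.3 µM, 0 genes of any of the 6 lists passed.

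**Figure D4:**
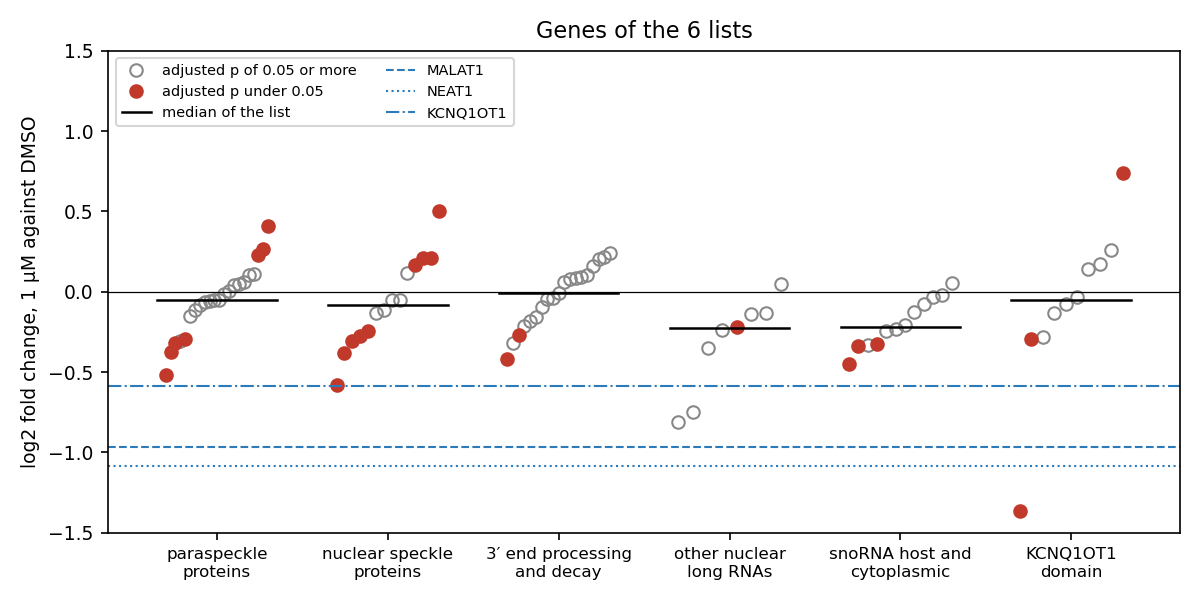
log2 fold change at 1 µM against DMSO (edgeR, linear axis of log2 values) of the tested genes of the 6 lists, filled where the adjusted p was under 0.05; black bars are list medians and blue lines the 3 long RNAs. Paraspeckle and speckle proteins lie on both sides of 0, and no gene other than MIAT, HOTAIR, SLC22A18AS and PHLDA2 lies further from 0 than RBM25, at -0.58.

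The wider classes were described in the same way, without the 3 RNAs. At 1 µM, 59 of 586 other lincRNAs (10.1%) fell and 6 rose, with a median log2 fold change of -0.17, and 124 of 753 other antisense genes (16.5%) fell and 3 rose, with a median of -0.32. Of 12900 protein-coding genes, 1160 (8.99%) fell and 1178 (9.13%) rose, with a median of 0.02. LincRNA and antisense genes whose deposited length equals their whole span, like the 3 RNAs, fell in 31 of 313 cases (9.9%). Those whose length differs from their span fell in 152 of 1026 (14.8%). The medians were -0.26 and -0.25. Protein-coding genes with a deposited length of at least 8 kb fell in 13.5% of cases and shorter ones in 7.72%. Antisense genes share the limit on strand.

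Among lincRNA and antisense genes with a mean of at least 10 CPM, 74 were tested beside the 3. Of the 74, 19 fell (25.7%) and 3 rose, with a median of -0.14. Over all genes 9.95% fell and 7.67% rose, with a median of -0.01. The share among all genes of at least 10 CPM was not computed, so nothing about this class is read from the 25.7%. Of these 74 genes, 11 had a fitted value below that of KCNQ1OT1. Of the 5 genes with the lowest values, MALAT1 and NEAT1 had means of 209 and 204 CPM and the other 3 had 10.5 to 12.7 CPM.

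**Figure D5:**
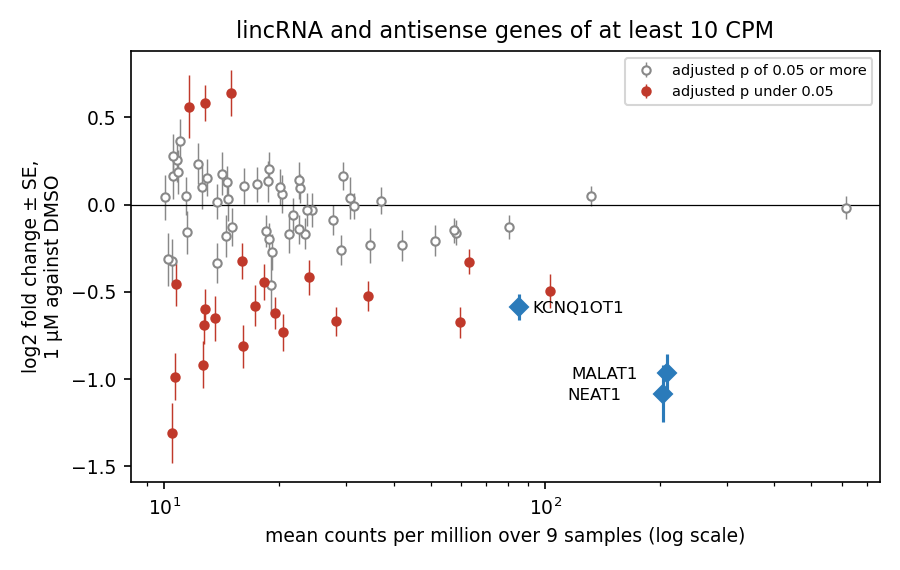
log2 fold change ± SE at 1 µM against DMSO of the 77 lincRNA and antisense genes with a mean of at least 10 CPM, against mean CPM over 9 samples (log axis); filled points had an adjusted p under 0.05 and blue diamonds are the 3 long RNAs. MALAT1 and NEAT1 sit at 209 and 204 CPM with values of -0.96 and -1.08, and KCNQ1OT1 at 85.6 CPM with -0.59.

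The genes whose profiles over the 9 samples were most like each RNA were found from log2 CPM centred on the mean of each gene, over 9692 genes with a mean of at least 10 CPM. The measure is the root-mean-square difference on the log2 scale, and the points share libraries and depth. For MALAT1 these were PNISR (0.08), an SR-related protein, NKTR (0.09), a cyclophilin with an SR-like domain, and ANKRD36C (0.10), which has near-identical copies and is uncertain. PNISR had 3294, 4168 and 3567 counts in DMSO and 2206, 1713 and 2017 at 1 µM, with the highest DMSO and the lowest 1 µM value in replicate 2, as for MALAT1. NKTR had a log2 fold change of -0.93 (SE 0.07) beside the -0.96 of MALAT1, a closeness that follows from how it was picked.

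For NEAT1 the closest profiles were PYROXD2 (0.15), MALAT1 itself (0.17) and PNISR (0.19). NEAT1 ranked 25 among the profiles like MALAT1, and KCNQ1OT1 ranked 45. For KCNQ1OT1 they were FANCM (0.05), a helicase of the Fanconi anemia pathway, FIGN (0.06), a microtubule-severing enzyme, and ETAA1 (0.07), an activator of the ATR kinase at stalled replication forks. FANCM had 241, 295 and 226 counts in DMSO, 247, 255 and 283 at 0.3 µM, and 169, 165 and 153 at 1 µM, with a log2 fold change at 1 µM of -0.66 (SE 0.12) and at 0.3 µM of 0.02. MALAT1 was at rank 608 and NEAT1 at rank 4376 among profiles like KCNQ1OT1. The measure counts the size of a change as well as its shape. MALAT1 and NEAT1 fell further than KCNQ1OT1 at 1 µM, the dose that chose all 3. Their ranks beside each other are therefore not read as a difference in pattern.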

How the data were processed

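RNA-seq was performed by the authors on 9 KHM-5M samples. Reads were aligned to GRCh38 with HISAT2 2.0.5. Counts per gene came from HTseq per the methods and from featureCounts 1.5.0-p3 per the submitters' processing notes, which also name DESeq2 1.20.0. The deposited counts are whole numbers with no normalization, and the deposited FPKM values divide them by gene length and library size. The labels name a poly(T)-selected RNA kit and the methods a stranded kit. The methods give 2 replicates and the labels 3, and all 3 were used. The authors' columns of fold changes, p-values and adjusted p-values were not used.

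Genes passing filterByExpr (minimum count 10) were fitted on the groups compared with edgeR 4.0.16 (TMM, quasi-likelihood, Benjamini-Hochberg over all genes) in R 4.3.3. Python 3.11.15, pandas 2.3.3, numpy 2.4.6, scipy 1.17.1 and matplotlib 3.10.9 were used. The edgeR step was tested on data simulated for 1 µM against DMSO, with 200 genes changed 2-fold. It recovered 159 of them and made 14 false calls. The simulated spread followed the trend with level, without a spread particular to each gene. A count of 0 allows 3 counts, or 0.164 to 0.177 CPM (counting error only). The 3 RNAs and the 6 lists were chosen with earlier results of these data known. Genes were named as the 3 RNAs, the up to 3 largest called rises and falls of each list, called or overlapping neighbors within 250 kb and the 3 closest profiles. Other list members named for their role, and FRMD8, were chosen after their values were seen. Some items are not reported here. Deviations of same-numbered samples correlated at 0.102 to 0.319 between 0.3 µM and DMSO, where each sample was most like its own number. They correlated at -0.19 to 0.09 between 1 µM and DMSO and at -0.10 to -0.02 between 1 µM and 0.3 µM. These correlations are weak, and whether the numbers mark pairs is not settled. The main fits use no pairing. Alternatives were DESeq2 1.42.0, RLE factors, protein-coding library sizes, no filter, all 9 samples, the replicate block, a 1.5-fold cutoff, each sample left out and, added after the data were seen, trends with GC content and length (lowess span 0.3).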

Additional observations from a re-analysis of the deposited data

How the results depend on the processing

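All 3 RNAs were lower at 1 µM than in DMSO and at 0.3 µM under every alternative run. With samples left out, the log2 fold change at 1 µM against DMSO ranged from -1.05 to -0.83 for MALAT1, -1.23 to -0.86 for NEAT1 and -0.64 to -0.48 for KCNQ1OT1. A length trend moved KCNQ1OT1 to -0.39 against DMSO and to -0.43 against 0.3 µM; the cause was not tested. At 0.3 µM KCNQ1OT1 ranged from -0.058 to 0.11 with samples left out, turning negative without DMSO replicate 1 (-0.043), DMSO replicate 3 (-0.026) or 0.3 µM replicate 3 (-0.058). With samples left out, MALAT1 at 0.3 µM ranged from -0.23 to -0.012 and NEAT1 from -0.40 to -0.17. NEAT1 at 0.3 µM passed with no filter (-0.32, adjusted p = 0.0157 by edgeR), where 1 spread was in effect shared by every gene, and its adjusted p over all alternatives ran from 0.0157 to 1.0.

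Genes called at 1 µM numbered 1683 to 2977 with samples left out and 858 with a 1.5-fold cutoff, which took 5 of the lists to 0. At 0.3 µM the number was 1 with DESeq2, 30 with no filter, 1 with the replicate block and 0 to 4 with samples left out. At 1 µM the replicate block, though same-numbered samples showed no steady correlation there, left 5 speckle genes and 0 other nuclear long RNAs. A GC trend gave 4 processing genes and 5 snoRNA host and cytoplasmic RNAs. With samples left out, called genes ranged from 4 to 7 for speckle proteins, 1 to 2 for processing, 0 to 1 for other nuclear RNAs and 3 to 5 for snoRNA hosts. Called KCNQ1OT1 domain genes numbered 1 with DESeq2 and 1 to 3 with samples left out. The block changed no call of the 3 RNAs at 0.3 µM and moved no other count by over 1.5 times.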

Other observations

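Beyond the lists, several long RNAs of at least 10 CPM moved with or against the 3 RNAs at 1 µM, and they are named here after their values were seen. THAP9-AS1, at a mean of 59.7 CPM, had a log2 fold change of -0.68 (SE 0.09), and CRNDE, a long RNA described in colorectal tumors, had -0.73 (SE 0.11). TGFB2-AS1, transcribed against TGFB2, had -0.99 (SE 0.14) at 10.7 CPM, and the snoRNA hosts SNHG19 and SNHG18 had -0.81 (SE 0.12) and -0.62 (SE 0.09). In the other direction, the 3 that rose were AC003092.1 at 0.64 (SE 0.13), LINC00973 at 0.58 (SE 0.10) and AC092171.2 at 0.56 (SE 0.18), with adjusted p of 0.00417, 0.00166 and 0.0453 by edgeR. All of these had means well under those of MALAT1 and NEAT1.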
